A study of Mus musculus with 8 samples.

Results

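The E2F factors E2f1 to E2f8 and the pocket proteins Rb1 and Rbl1 were examined in the RNA of activated B cells with and without Eif4a1. All 10 genes, of the 53242 in the deposited tables, were found by their gene names. Splenic B cells came from C57BL/6 mice of 8 to 12 weeks, either Eif4a1+/+ CD23-cre (control) or Eif4a1fl/fl CD23-cre (4A1 KO), so both genotypes carried the Cre transgene. The cells were cultured for 24 h with 40 ng/ml IL-4 on CD40LB cells, irradiated (120 Gy) feeder cells that display CD40 ligand and secrete BAFF. The feeder cells were then depleted with an antibody to H-2Kd before RNA was prepared. CD23-cre recombines in splenic B cells from the immature stage onwards, and the floxed allele removes exons 2 to 4 of Eif4a1, the gene of an RNA helicase that unwinds the 5′ ends of mRNAs at the start of translation. Each genotype had 4 libraries, each from a separate mouse. Batch A held replicate 1 (male) and replicate 2 (female) of both genotypes, and batch B held replicate 3 (male) and replicate 4 (female). The study left replicate 1 of both genotypes out of differential expression because of low viability. Fold changes therefore compare 3 libraries per genotype unless all 8 are named, and the value of every library is given.

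E2F proteins bind DNA, usually as dimers with a DP protein, at the promoters of genes needed to copy DNA and divide. E2F1, E2F2 and E2F3 are usually described as activators. E2F4 and E2F5 recruit the pocket proteins p107 (Rbl1) and p130 (Rbl2) in resting cells and act mainly as repressors, whereas RB (Rb1) mostly restrains the activators. Cyclin D and cyclin E kinases phosphorylate the pocket proteins during G1 and release the E2Fs. E2F6 represses through a Polycomb complex, and E2F7 and E2F8 repress E2F targets late in S phase without DP or pocket proteins. Several of these genes are E2F targets themselves. A resting B cell that has received CD40 and IL-4 signals passes through G1 during its first day of culture.

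The 6 libraries of the main comparison held between 38488341 and 43210858 reads counted on genes. Eif4a1 itself had 747 to 936 CPM (counts scaled to a common library total) in the 4 control libraries and 557 to 691 CPM in the 4A1 KO libraries, so the genotypes did not overlap. It fell by 0.44 on the log2 scale (SE 0.05, 3 libraries a genotype, edgeR adjusted p = 1.15e-04), and the count covers the whole gene, deleted exons and others alike. All 7 B cell markers were detected, with a summed level of 6633 to 7744 CPM in control and 7002 to 7381 CPM in 4A1 KO libraries, although Cd79b, Cd22 and Cd79a fell by 0.89, 0.76 and 0.67 on the log2 scale. The other 4 were not called, with log2 fold changes of -0.23 for Pax5 to 0.30 for Fcer2a, and the median of the 7 was -0.23. The 8 fibroblast markers, which stand for feeder cells, summed to 9.42 to 44.2 CPM in control and 14.6 to 28.0 CPM in 4A1 KO libraries. Of the 6 that could be tested, Col3a1 was called lower and Fn1 higher. The 6 T cell markers summed to at most 1.11 CPM and the 6 myeloid markers to at most 8.94 CPM, with Adgre1 called higher. The part of these other cells in the results below was not tested. In RNA from a whole culture, fewer cells that express a gene and less of its RNA in each cell cannot be told apart.

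In 4A1 KO B cells the activator E2f1, E2f2 and E2f3 mRNAs fell, as did the atypical repressors E2f7 and E2f8, with the largest falls in edgeR, and E2f6, while E2f5 rose. E2f4, Rb1 and Rbl1 did not pass both thresholds, a Benjamini-Hochberg adjusted p under 0.05 and a log2 fold change of more than 0.5 in either direction. Thus 6 of the 10 genes were called lower by edgeR's quasi-likelihood test, where 13.7% of all 14218 genes tested were, and 1 was called higher, where 11.6% of all genes were. With no threshold on the fold change, 9 of the 10 genes and 53.0% of all genes had an adjusted p under 0.05. The median log2 fold change was -0.64 over the 10 genes and 0.01 over all genes tested. In CPM, the highest 4A1 KO library lay below the lowest control library for 5 of the 10 genes, against 19.9% of all genes, and the lowest lay above the highest control library for 2 of the 10, against 17.0%. All 10 genes passed the filter on low counts in both genotypes.

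**Figure D1:**
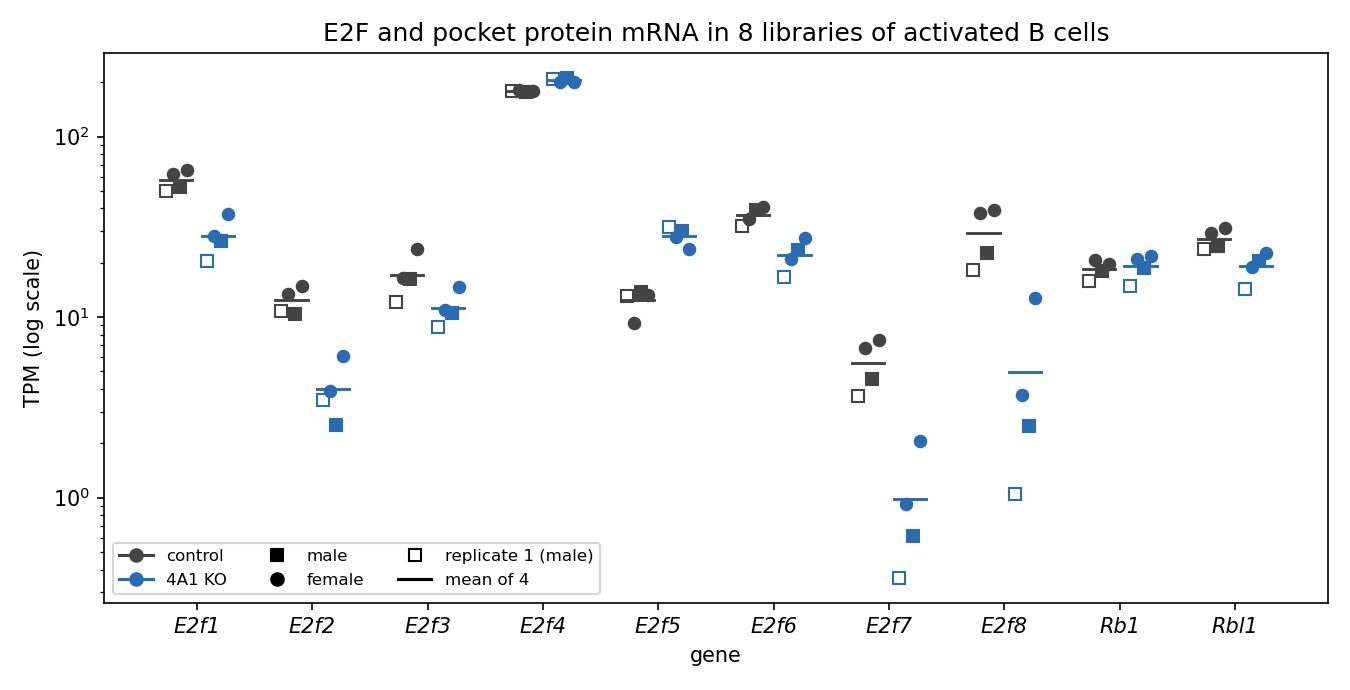
TPM of each gene (log axis) in the control (grey) and 4A1 KO (blue) libraries, 4 of each, with males as squares, females as circles, replicate 1 open and the mean of 4 as a line. E2f4 stands far above the others in both genotypes, E2f1, E2f2, E2f6, E2f7, E2f8 and, by a small gap, Rbl1 are lower in every 4A1 KO library than in any control library, and E2f4 and E2f5 are higher.

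Of the activators, E2f1 (chromosome 2, 154401326 to 154411812, minus strand, GRCm39) is the E2F most strongly tied to S phase entry and can also drive cell death. It had 75.3, 91.0, 76.5 and 92.5 CPM in control libraries 1 to 4, and 31.5, 41.6, 38.0 and 53.5 CPM in 4A1 KO libraries 1 to 4. The highest 4A1 KO library thus lay below the lowest control library. The log2 fold change was -0.97 (95% confidence interval -1.13 to -0.81, adjusted p = 2.04e-05, edgeR), a 1.96-fold lower level. The deficit was present in each same-numbered pair, at -1.26, -1.13, -1.01 and -0.79 on the log2 scale for pairs 1 to 4.

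E2f2 (chromosome 4, 135899585 to 135923368, plus strand) encodes an activator that in lymphocytes is also known as a brake on proliferation. It had 26.3, 32.7, 25.7 and 35.8 CPM in control libraries 1 to 4 and 7.79, 9.38, 6.36 and 14.2 CPM in 4A1 KO libraries 1 to 4. It fell most among the activators, by 1.70 on the log2 scale (95% confidence interval -1.98 to -1.41, adjusted p = 1.93e-05, edgeR), which is 3.24-fold. E2f3 (chromosome 13, 30090558 to 30170046, minus strand) has an activating and a shorter isoform, which the counts do not separate. It had 34.2, 44.8, 44.0 and 62.8 CPM in control libraries 1 to 4 and 25.2, 29.96, 28.1 and 39.0 CPM in 4A1 KO libraries 1 to 4. Control 1 lay below 4A1 KO 4, so the genotypes overlapped, yet each 4A1 KO library was lower than the control library of its own number. E2f3 fell by 0.63 (95% confidence interval -0.77 to -0.50, adjusted p = 5.26e-05, edgeR), close to the threshold of 0.5, and against that threshold itself its adjusted p was 0.0595 (edgeR's glmTreat).

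The canonical repressors were not lower. E2f4 (chromosome 8, 106024243 to 106032003, plus strand), the E2F that carries p107 and p130 to promoters in resting cells, had 194, 193, 185 and 181 CPM in control libraries 1 to 4. In 4A1 KO libraries 1 to 4 it had 231, 214, 220 and 208 CPM. All 4A1 KO libraries were above all control libraries, but the gap was small: the log2 fold change was 0.20 (95% confidence interval 0.10 to 0.31, adjusted p = 0.00591, edgeR), below the fold threshold.

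E2f5 (chromosome 3, 14643676 to 14672404, plus strand) was the one gene of the 10 called higher. It had 12.9, 8.80, 12.9 and 12.2 CPM in control libraries 1 to 4, and 31.0, 26.8, 27.9 and 22.1 CPM in 4A1 KO libraries 1 to 4. The genotypes were well separated, with the lowest 4A1 KO library above the highest control library by more than the spread within either genotype. The log2 fold change was 1.19 (95% confidence interval 0.90 to 1.48, adjusted p = 1.00e-04, edgeR), or 2.28-fold. E2f5 shares 1731 exon bases with Rbis on the opposite strand. The reads were counted by strand, and Rbis, with 37.6 to 50.4 CPM, had a log2 fold change of -0.19 (adjusted p = 0.0494, edgeR), opposite in sign to that of E2f5.

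The repressors that work without pocket proteins all fell. E2f6 (chromosome 12, 16860874 to 16890766, plus strand) had 41.7, 42.1, 47.7 and 48.0 CPM in control libraries 1 to 4 and 23.6, 27.2, 30.1 and 30.5 CPM in 4A1 KO libraries 1 to 4. The genotypes did not overlap, and the log2 fold change was -0.65 (95% confidence interval -0.78 to -0.51, adjusted p = 5.08e-05, edgeR). E2f7 (chromosome 10, 110581300 to 110623245, plus strand) had 9.68, 17.5, 11.01 and 18.1 CPM in control libraries 1 to 4, and only 1.04, 2.21, 1.64 and 5.69 CPM in 4A1 KO libraries 1 to 4. It fell by 2.39 on the log2 scale (95% confidence interval -2.90 to -1.88, adjusted p = 4.95e-05, edgeR), or 5.23-fold. The count behind the lowest of these values was 33 reads, in 4A1 KO 1.

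E2f8 (chromosome 7, 48516176 to 48531452, minus strand), the close relative of E2f7, fell the furthest of the 10 genes in edgeR. It had 36.6, 72.0, 43.6 and 72.3 CPM in control libraries 1 to 4 and 1.89, 6.99, 4.52 and 23.7 CPM in 4A1 KO libraries 1 to 4. The log2 fold change was -2.65 (95% confidence interval -3.33 to -1.98, adjusted p = 1.15e-04, edgeR), or 6.29-fold. DESeq2's normal shrinkage, which pulls noisy changes towards 0, gave -1.004 for E2f8, behind -1.88 for E2f7 and -1.53 for E2f2, so the order of the falls depends on the method. The size of the fall varied between pairs more than for any other gene of the 10, from -4.27 in pair 1 and -3.37 and -3.27 in pairs 2 and 3 to -1.61 in pair 4. 4A1 KO 4 held the highest E2f7 and E2f8 of the 4A1 KO libraries, and without replicate 4 the log2 fold change was -3.32 for E2f8 and -2.87 for E2f7.

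Neither pocket protein gene was called: Rb1 moved little, and Rbl1 fell by less than the fold threshold. Rb1 (chromosome 14, 73421113 to 73563507, minus strand), the retinoblastoma protein that holds activator E2Fs in check, had 39.7, 51.2, 43.4 and 47.1 CPM in control libraries 1 to 4. It had 37.6, 52.2, 45.7 and 52.2 CPM in 4A1 KO libraries 1 to 4, so the genotypes overlapped over most of their range. The log2 fold change of Rb1 was 0.09 with a 95% confidence interval of -0.05 to 0.22 (adjusted p = 0.25, edgeR). Rbl1 (chromosome 2, 156987813 to 157046475, minus strand), which encodes p107, a pocket protein that is itself induced in cycling cells, had 51.1, 65.7, 58.4 and 69.8 CPM in control libraries 1 to 4. It had 31.8, 43.2, 47.0 and 51.8 CPM in 4A1 KO libraries 1 to 4, where only 4A1 KO 4 exceeded the lowest control library. In TPM the genotypes of Rbl1 did not overlap, with 14.3 to 22.7 in 4A1 KO and 23.7 to 31.0 in control libraries. Its log2 fold change was -0.44 (95% confidence interval -0.60 to -0.29, adjusted p = 6.90e-04, edgeR), short of the fold threshold. Rbl1 was called lower when replicate 3 was left out, at -0.51.

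**Figure D2:**
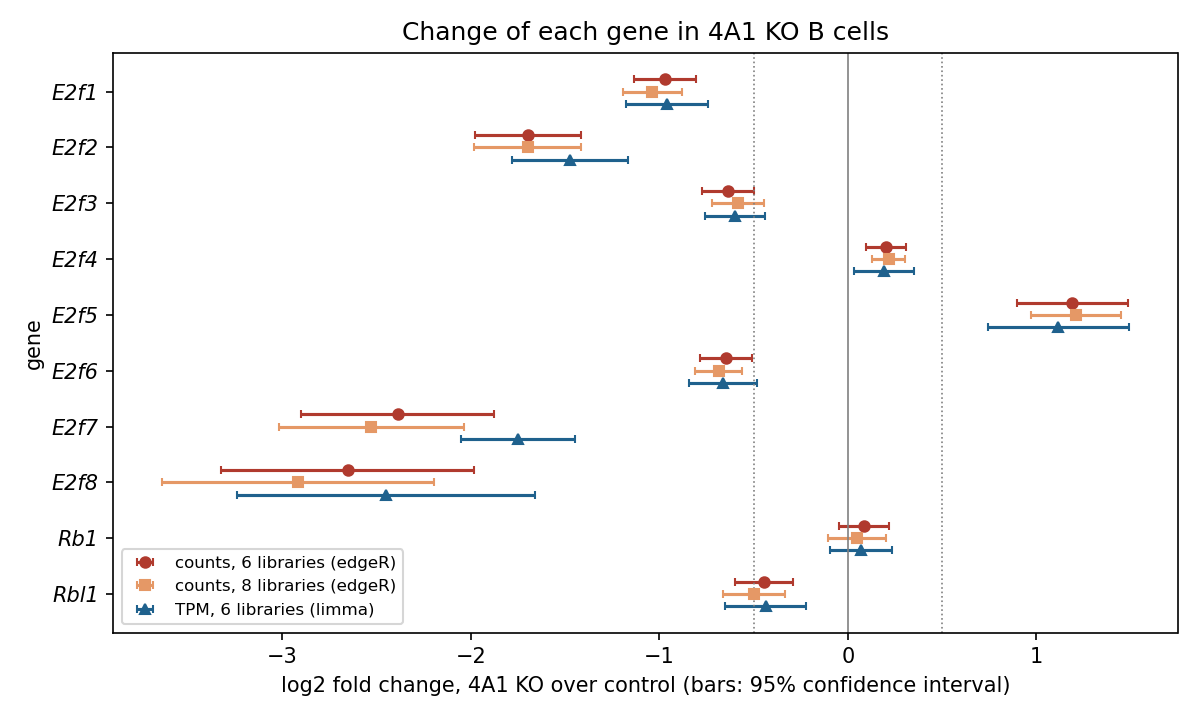
Log2 fold change of each gene in 4A1 KO over control B cells with its 95% confidence interval, from counts in 6 libraries (red circles), counts in all 8 (orange squares) and TPM in 6 (blue triangles). Dotted lines mark 0.5 in either direction: E2f7 and E2f8 lie furthest to the left, E2f5 is the only gene to the right of 0.5, and E2f4 and Rb1 lie between the lines in all 3 fits.

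The TPM, which were computed from the same reads by another tool, gave the same directions for the 10 genes. On the log2(TPM + 1) scale, 8 of the 10 genes had an adjusted p under 0.05 in limma, against 47.2% of the 12976 genes tested, and 7 of these were lower and 1 was higher. The log2 changes were -0.96 for E2f1, -1.47 for E2f2, -0.60 for E2f3, -0.66 for E2f6, -1.75 for E2f7, -2.45 for E2f8, -0.43 for Rbl1 and 1.12 for E2f5. The pseudocount of 1 understates the change of E2f7, whose TPM in 4A1 KO libraries lay between 0.361 and 2.06. E2f4 missed the threshold in 6 libraries (0.19, adjusted p = 0.0553, limma) and passed it in all 8 (0.20, adjusted p = 0.0104). Rb1 had 0.07 (adjusted p = 0.386, limma).

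TPM is scaled to transcript length and so allows the 10 genes to be ranked. In control B cells E2f4 was the most abundant, with 176 to 182 TPM in the 4 libraries, and E2f1 came next with 49.7 to 65.3 TPM. Neither range overlapped its neighbour's. E2f6 (32.2 to 40.5 TPM), E2f8 (18.3 to 39.1 TPM) and Rbl1 (23.7 to 31.0 TPM) followed, and neighbours among these overlapped. Rb1 (15.9 to 20.7 TPM), E2f3 (12.1 to 23.9 TPM), E2f2 (10.5 to 14.97 TPM) and E2f5 (9.30 to 13.7 TPM) formed a further run of overlapping ranges. E2f7 was lowest at 3.66 to 7.45 TPM, apart from all others.

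In 4A1 KO B cells E2f4 was again the most abundant, with 201 to 211 TPM. E2f5 moved from 9th place to 2nd, with 23.8 to 31.5 TPM, level with E2f1 at 20.4 to 37.3 TPM, and each exceeded the other in 2 of the 4 libraries. E2f6 (16.7 to 27.5 TPM), Rb1 (14.9 to 21.8 TPM), Rbl1 (14.3 to 22.7 TPM) and E2f3 (8.84 to 14.7 TPM) overlapped with their neighbours in the order. E2f8 dropped from 4th place to 8th, with 1.05 to 12.7 TPM, and did not separate from E2f2 at 2.53 to 6.09 TPM. E2f7 was again last with 0.361 to 2.06 TPM. Parts of this order depend on the scale. With CPM per kilobase of merged exons E2f5 moved from 9th place to 3rd, E2f1 was 2nd and exceeded E2f5 in all 4 4A1 KO libraries (9.09 to 15.4 against 5.53 to 7.77 CPM per kilobase), and E2f8 dropped from 3rd place to 9th. E2f6, which was 3rd in control and 4th in 4A1 KO libraries by TPM, was 8th and 7th on that scale, while E2f4 stayed first and E2f7 last in both genotypes.

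The activator and repressor E2Fs were summed in each library as a description, with no test. E2f1, E2f2 and E2f3 together had 72.6, 91.6, 79.2 and 104 TPM in control libraries 1 to 4, and 32.8, 42.9, 39.3 and 58.2 TPM in 4A1 KO libraries 1 to 4. The sum of E2f4 to E2f8 was 263 ± 14.6 TPM (SD, n = 4) in control and 262 ± 6.73 TPM (SD, n = 4) in 4A1 KO libraries. The repressor sum was thus level while its makeup changed: E2f7 and E2f8 together were 35.0 ± 12.3 TPM (SD, n = 4) in control and 5.98 ± 6.01 TPM (SD, n = 4) in 4A1 KO libraries, while E2f4 and E2f5 were higher. Activators made up 22.8% to 27.2% of all E2F mRNA in control libraries and 11.3% to 17.9% in 4A1 KO libraries. E2f4 alone took 46.5% to 56.0% in control and 61.8% to 71.7% in 4A1 KO libraries, and E2f5 took 2.57% to 4.12% and 7.33% to 10.8%. The ratio of E2f5 to E2f2 was 0.69 to 1.31 in control libraries and 3.91 to 11.8 in 4A1 KO libraries. The shares depend on the scale: with CPM per kilobase of merged exons, activators made up 41.0% to 45.9% in control and 23.3% to 34.2% in 4A1 KO libraries, again without overlap.

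**Figure D3:**
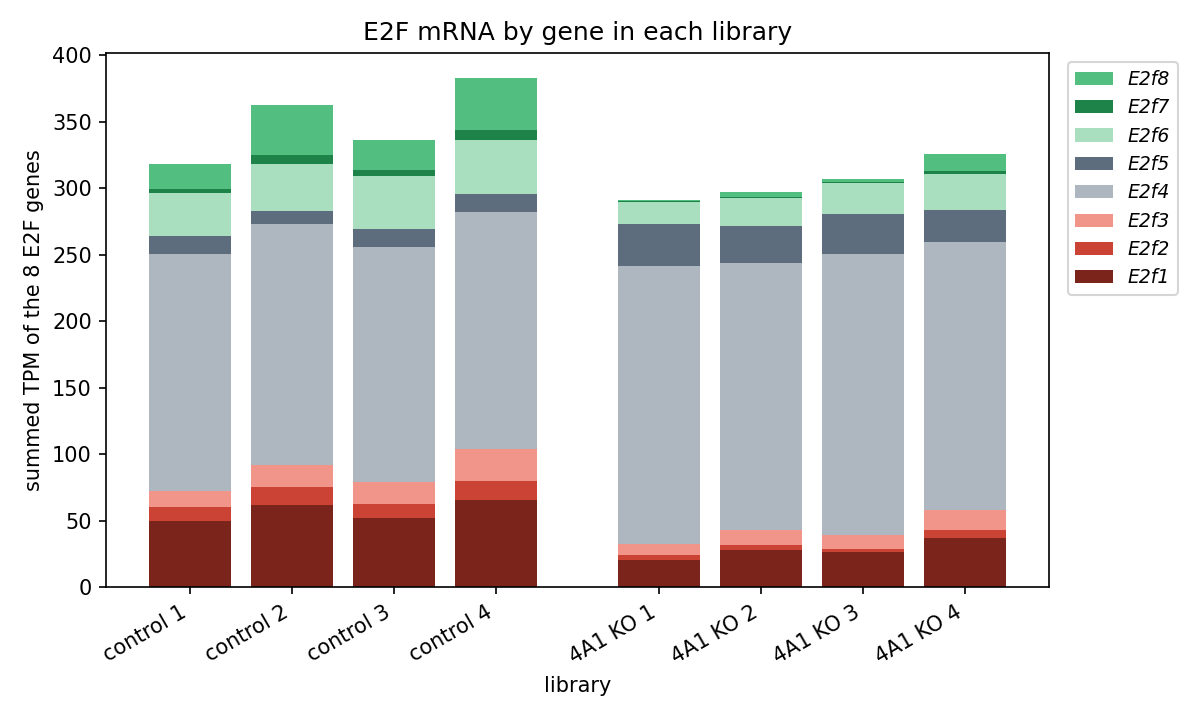
TPM of the 8 E2F genes stacked in each library, activators in red, E2f4 and E2f5 in grey, and E2f6, E2f7 and E2f8 in green. The red segments are shorter in every 4A1 KO library (32.8 to 58.2 TPM) than in any control library (72.6 to 104 TPM), the upper green segment for E2f8 nearly vanishes in 4A1 KO libraries 1 to 3, and the dark grey E2f5 segment widens.

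Promoter sequences of the 10 genes were searched for motifs, since several of these genes are known targets of E2Fs. RefSeq windows of 300 bases, from 250 bases before to 50 after a start site, were taken for 7 of the 10 genes (9 windows) and located in GRCm39. E2f4, E2f5 and Rb1 had no entry. The E2F words TTTCCCGC, TTTCGCGC, TTTGCCGC and TTTGGCGC were searched on both strands, and were present in windows of E2f2, E2f3, E2f7 and Rbl1. Counted by window these were 4 of the 9, and 2.26% of all 32851 mouse windows of this length held such a word. The CHR word TTTGAA, known from promoters bound by the DREAM complex, was found on either strand in windows of E2f2, E2f3 and E2f8, which were 3 of the 9, and in 17.9% of all windows. E2f2 had 2 windows, and its CHR word was not in the one with its E2F word but in that of a start site 8508 bases downstream of the annotated 5′ end. No CHR match overlapped an E2F match. The window of E2f1 held neither word, and its start site lies 466 bases downstream of the annotated 5′ end of the gene. A match is a description of the letters and was not tested for binding. The 250 bases before the start of E2f7 and of E2f3 show where the matches lie, and 30 bases around a match are shown for E2f2, E2f8 and Rbl1, each 5′ to 3′ on the strand of the gene with matches in capitals.
E2f7, chr10:110581050-110581299, plus strand, E2F word read on the opposite strand: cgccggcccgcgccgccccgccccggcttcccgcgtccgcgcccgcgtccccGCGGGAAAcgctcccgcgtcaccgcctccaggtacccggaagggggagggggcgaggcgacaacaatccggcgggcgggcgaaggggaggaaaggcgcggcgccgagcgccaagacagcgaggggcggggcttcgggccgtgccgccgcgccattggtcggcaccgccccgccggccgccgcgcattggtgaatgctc
E2f3, chr13:30170047-30170296, minus strand, CHR word and then E2F word on the opposite strand: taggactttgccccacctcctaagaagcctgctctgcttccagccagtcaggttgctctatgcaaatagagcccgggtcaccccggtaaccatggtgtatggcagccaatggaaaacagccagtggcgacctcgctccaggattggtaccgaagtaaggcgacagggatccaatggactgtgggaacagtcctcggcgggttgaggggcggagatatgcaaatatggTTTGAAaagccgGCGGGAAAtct
E2f2, chr4:135899605-135899634, plus strand, E2F word: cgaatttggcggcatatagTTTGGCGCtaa
E2f8, chr7:48531346-48531375, minus strand, CHR word on the opposite strand: agcgggttaatTTCAAAtcgggggctggac
Rbl1, chr2:157046454-157046483, minus strand, E2F word: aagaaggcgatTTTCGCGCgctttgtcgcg
The E2F words began at position -198 for E2f7, -11 for E2f3, -18 for Rbl1 and 40 for E2f2, and the CHR words at -23 for E2f3, -20 for E2f8 and -31 for E2f2, each counted from the start site of its own window. Among the genes with windows, E2f6 fell without either word, and Rbl1 held an E2F word without passing the fold threshold. E2f1 fell too, but its window lay wholly inside the gene, so the bases before its annotated 5′ end were not searched.

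The level of several of these genes also differed between the sexes, in a test that was added after the values had been seen. In all 8 libraries, with batch and genotype as covariates, 7 of the 10 genes were lower in males at an adjusted p under 0.05 (edgeR), where 4.79% of all 14211 genes tested were. The male minus female log2 difference was -1.36 for E2f8 (95% confidence interval -2.05 to -0.67, adjusted p = 0.0339), -1.05 for E2f7, -0.54 for E2f2, -0.40 for E2f3, -0.35 for E2f1, -0.29 for Rbl1 and -0.28 for Rb1. For E2f8 the control males had 36.6 and 43.6 CPM and the control females 72.0 and 72.3 CPM. For E2f7 the control males had 9.68 and 11.01 CPM and the control females 17.5 and 18.1 CPM. E2f4, E2f5 and E2f6 did not pass, at 0.07, 0.29 and -0.05.

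One of the 2 males of each genotype was replicate 1, with low viability. In the 6 libraries without it, which hold 1 male per genotype, none of the 10 genes passed for sex, where 0.134% of all genes were lower in males at an adjusted p under 0.05 (edgeR). There 5 of the 10 genes, and 1627 of all genes, had an unadjusted p under 0.05, and the differences were -1.49 for E2f8 (adjusted p = 0.141) and -1.16 for E2f7 (adjusted p = 0.135). They were -0.77 for E2f2, -0.48 for E2f3 and -0.37 for E2f1, no smaller than in the 8 libraries, and -0.18 for Rbl1 and -0.14 for Rb1, which were smaller. The E2F target lists described below were lower in males too, with 30 of 40 genes at an adjusted p under 0.05 in the 8 libraries (edgeR), against 4.79% of all genes, and a median of -0.43. That count did not hold in the 6 libraries, where only 19 genes in all were lower in males at an adjusted p under 0.05. The part of viability in the sex difference was not tested.

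The genotype effect itself was tested for a difference between sexes and between batches, with 1 interaction term at a time in the 8 libraries. No gene, of the 10 or of any other, had an adjusted p under 0.05 for genotype by sex (edgeR). Of the 14211 genes tested, 405 had an unadjusted p under 0.05. E2f8 was the only one of the 10 among these, with a larger fall in males (interaction term -1.29, 95% confidence interval -2.49 to -0.10, unadjusted p = 0.0368, adjusted p = 1). For genotype by batch, 1 gene passed, none of the 10, and 610 of the 14211 genes had an unadjusted p under 0.05. These included E2f1, E2f5, E2f7 and E2f8, for each of which the change was smaller in batch B. Their interaction terms were 0.30, -0.44, 0.99 and 1.41 on the log2 scale, with an adjusted p of 0.999 for each (edgeR). Both fits include replicate 1, the male pair of batch A with low viability. That pair had the largest falls of E2f1, E2f7 and E2f8, at -1.26, -3.22 and -4.27 (log2 of CPM). The largest rise of E2f5 was in pair 2, at 1.61. Pair 2 of batch A and pair 3 of batch B were close for E2f8, at -3.37 and -3.27.

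**Figure D4:**
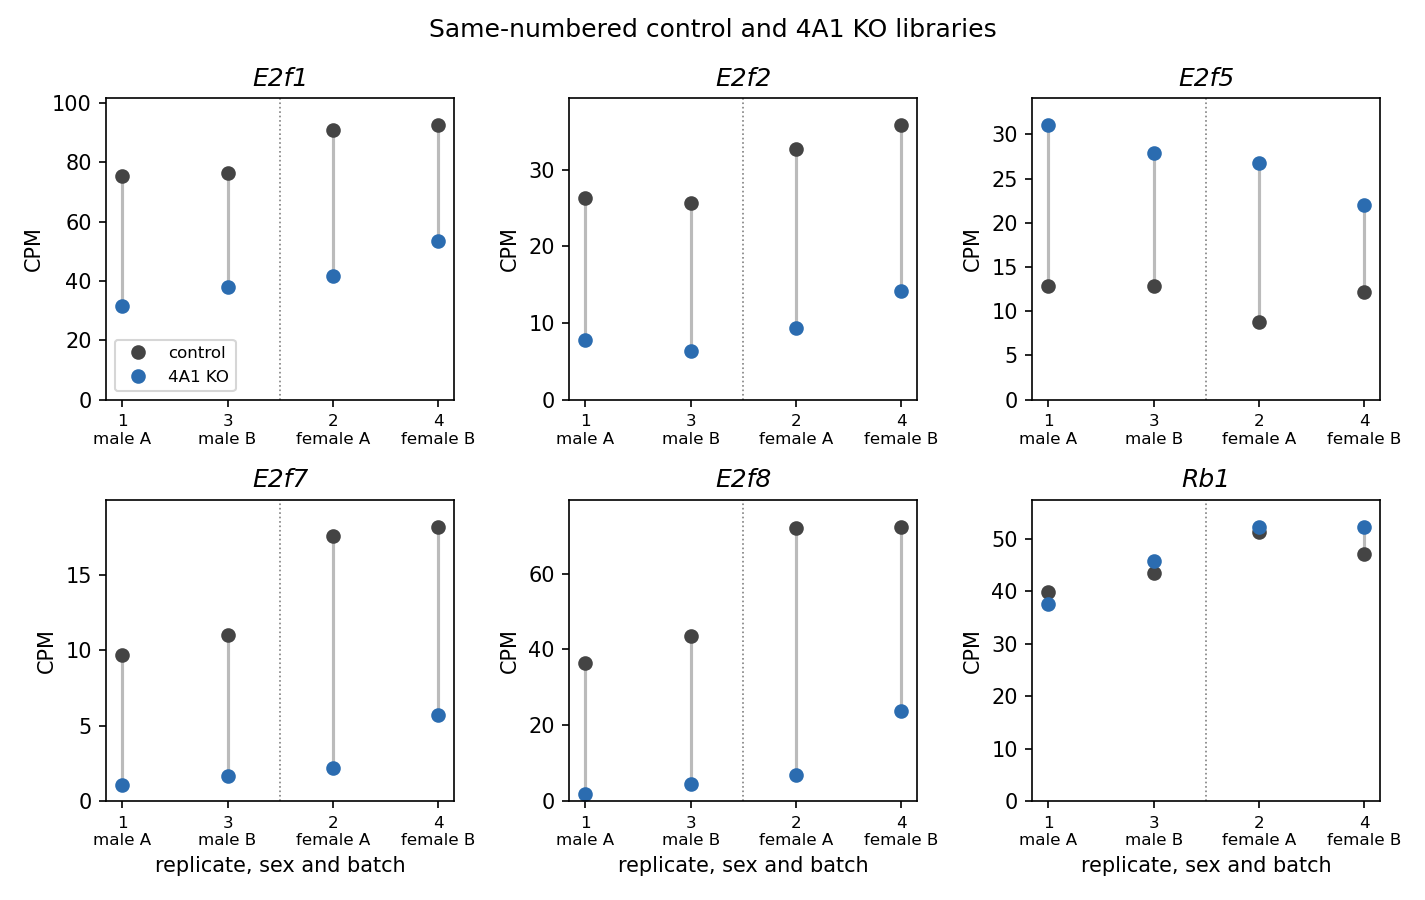
CPM of E2f1, E2f2, E2f5, E2f7, E2f8 and Rb1 in the same-numbered control (grey) and 4A1 KO (blue) libraries, ordered by sex and batch. The control levels of E2f7 and E2f8 are lower in the male libraries 1 and 3 than in the female libraries 2 and 4, the gap between genotypes is present in every pair for all but Rb1, and 4A1 KO 4 has the highest E2f1, E2f2, E2f7 and E2f8 of its genotype.

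The dimer partners and the remaining pocket protein were measured beside the E2Fs, and none of these 3 genes was called. Tfdp1, which encodes the main DP partner, had 225 ± 15.9 TPM (SD, n = 3) in control and 160 ± 34.1 TPM (SD, n = 3) in 4A1 KO libraries, a log2 fold change in counts of -0.45 (adjusted p = 3.58e-04, edgeR), below the fold threshold. Tfdp2, the other DP gene, was at 6.14 ± 1.11 TPM in control and 5.89 ± 0.659 TPM in 4A1 KO libraries (SD, n = 3), with a log2 fold change of -0.05 (95% confidence interval -0.26 to 0.15). Rbl2, which encodes p130, the pocket protein of resting cells, had 10.5 ± 0.729 TPM in control and 10.5 ± 0.83 TPM in 4A1 KO libraries (SD, n = 3) and a log2 fold change of 0.04 (95% confidence interval -0.13 to 0.21).

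The MuvB proteins join E2F4, DP and a pocket protein in the DREAM complex of resting cells, and later B-Myb (Mybl2) and FOXM1 in the complex that drives mitotic genes. Of these 7 genes 3 were called lower and none higher, with a median log2 fold change of -0.38, where 13.7% of all genes were called lower and 11.6% higher. Mybl2 had 306 ± 28.0 CPM in control and 124 ± 41.0 CPM in 4A1 KO libraries (SD, n = 3) and fell by 1.34 on the log2 scale (adjusted p = 2.22e-05, edgeR). Foxm1 had 43.0 ± 10.2 CPM and 18.1 ± 4.92 CPM (SD, n = 3) and fell by 1.24 (adjusted p = 1.06e-04, edgeR). Lin9, the third, lay just past the fold threshold at -0.51, and in all 8 libraries, at -0.49, it was not called. The rest of the MuvB core was not called, with log2 fold changes of 0.27 for Lin37, -0.21 for Lin52, -0.38 for Lin54 and -0.24 for Rbbp4.

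Among the partners of E2F6 and of the pocket proteins in repression, 2 of 9 and 2 of 10 genes were called, where 13.7% of all genes were called lower and 11.6% higher. Of 9 genes of the E2F6 Polycomb complex, Rybp rose (0.60) and Cbx3 fell by 0.55, with a list median of 0.24. Of the 7 not called, 5 had an adjusted p under 0.05 (edgeR) with changes below the fold threshold, which were 0.40 for Pcgf6, 0.35 for Max, 0.25 for Rnf2, 0.24 for Mga and -0.16 for L3mbtl2. That made 7 of the 9 at an adjusted p under 0.05, against 53.0% of all genes. All 4A1 KO libraries lay above all control libraries in CPM for Pcgf6 and Max, and below them for L3mbtl2. Of 10 co-repressors recruited by pocket proteins, the histone demethylase gene Kdm5a rose (0.50, just past the threshold, and 0.45 and not called in all 8 libraries) and the histone methyltransferase gene Suv39h1 fell by 0.73, with a median of 0.06, and 3 of the 8 not called had an adjusted p under 0.05 (0.27 for Sin3a, 0.24 for Arid4b and -0.22 for Hdac3). Among 15 cyclins, cyclin-dependent kinases (CDKs) and inhibitors that act on the pocket proteins, 5 were called lower and 1 higher. Ccne1 and Ccne2, which encode cyclin E, fell by 1.74 and 0.95, the CDK4 and CDK6 inhibitor gene Cdkn2c fell by 1.35, and Cdk6 rose by 0.69 from 221 ± 29.1 to 355 ± 11.6 CPM (SD, n = 3; adjusted p = 3.33e-05, edgeR). The median of these 15 genes was -0.22. For Cdk6 the paper, in TPM, reported no difference in mRNA between the genotypes and less CDK6 protein in 4A1 KO cells. Of 8 genes for the turnover of E2F proteins, Ccnf and Skp2, which encode F-box proteins of ubiquitin ligases, fell by 1.6 and 0.63, the deubiquitinase gene Usp11 rose by 0.79, and the median was 0.02.

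**Figure D5:**
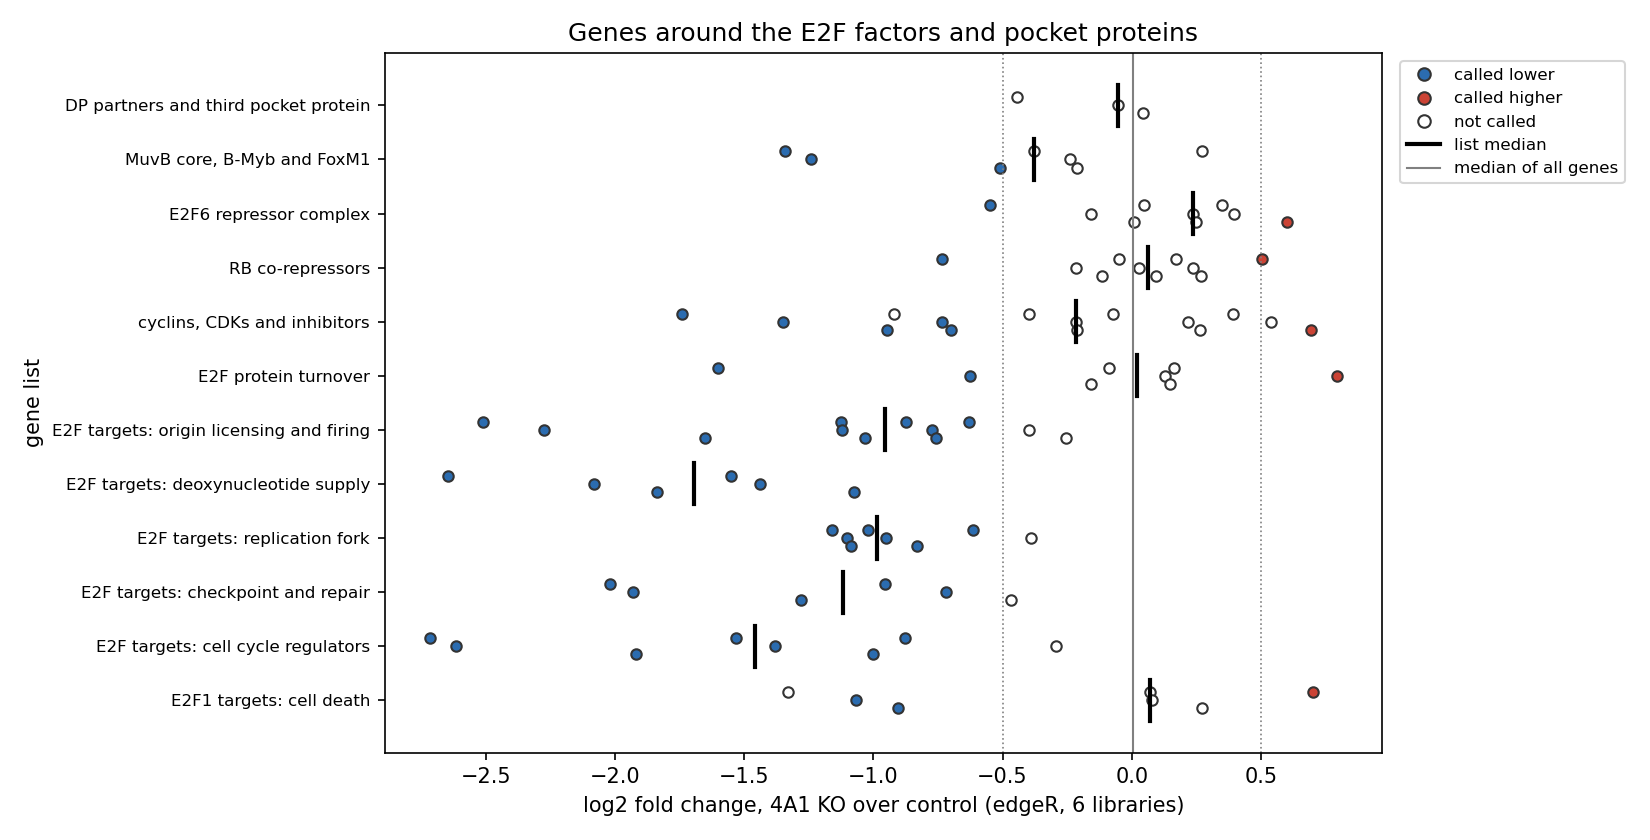
Log2 fold change of each tested gene in 12 lists around the E2F factors and pocket proteins (edgeR, 6 libraries), filled blue where called lower, red where called higher and open where not called, with list medians as black bars. The 5 lists of E2F targets for replication and the cell cycle lie wholly to the left of 0, with medians of -0.95 to -1.69, while the lists of partners and co-repressors straddle 0.

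The genes that E2Fs are known to switch on were lower as a group. Of 40 targets in 5 lists, 35 were called lower and none higher, the 5 others were lower by less than the fold threshold, and the median log2 fold change was -1.09. Over all genes tested 13.7% were called lower and 11.6% higher, with a median of 0.01. Their summed level was 7434 to 10005 CPM in control and 3464 to 5956 CPM in 4A1 KO libraries, which did not overlap. All 6 genes of deoxynucleotide supply fell, with a median of -1.69, among them Rrm1, a subunit of ribonucleotide reductase, by 1.44, and Dut by 1.07. Of 12 genes for the licensing and firing of replication origins 10 were called lower, with a list median of -0.95. Among them the helicase subunit genes Mcm7 and Mcm4 fell by 1.12 and 0.87, and Gins1 by 1.13. Of 8 fork genes 7 were called lower, with a list median of -0.99. Rpa2 fell by 1.16, the flap endonuclease gene Fen1 by 1.09 and the clamp loader gene Rfc4 by 1.02. Of 6 checkpoint and repair genes 5 were called lower, with a list median of -1.12, among them Rad54l by 1.93 and Chek1 by 0.96. Of 8 cell cycle regulators 7 were called lower, with a list median of -1.46. Uhrf1 fell by 1.92, Tacc3 by 1.38 and the phosphatase gene Cdc25a by 1.00.

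The 7 cell death genes known as targets of E2F1 were mixed in direction. Of these, 2 were called lower, where 13.7% of all genes were, 1 was called higher, where 11.6% were, and 4 were not called. The log2 fold changes ran from -1.33 to 0.70, with a median of 0.07. The gene called higher was Bbc3, which encodes the BH3 protein PUMA, at a log2 fold change of 0.70.

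The genes whose CPM followed each gene of the 10 most closely over the 8 libraries are given as a description. The 8 points split by genotype, so that any gene that differs between genotypes ranks high. Among 11828 genes, E2f8 was closest to Birc5, Pclaf and Clspn (Pearson's r of log2 CPM 0.999, 0.999 and 0.998), E2f7 to Wdr90, Ncaph and Fanca, and E2f1 to Tonsl and Ncaph. E2f2 was closest to Plekhg2, Zranb3 and Wdr62, E2f3 to Mcph1, Tlr7 and Bora, and E2f6 to Fadd, Idi1 and Timm21. E2f5 was closest to Clptm1l, Slc16a6 and Zfp317, and E2f4 to Gm13680, Igkj5 and Apmap. Rbl1 was closest to Cep192, Cpsf2 and Lmnb1. For Rb1 the closest genes were Rcan3, its own relative Rbl2 and Lrba, with lower values of r (0.969, 0.968 and 0.960).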

How the data were processed

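RNA of activated splenic B cells was sequenced as 8 strand-specific, paired-end libraries, 4 per genotype, and grouped by the genotype, replicate number, sex and batch in the labels. Per the submitters' notes and the paper, reads were trimmed with Trim Galore 0.6.6 and mapped to GRCm39 with HISAT2 2.1.0. The authors deposited raw counts per gene, made with Seqmonk over merged isoforms of the Ensembl annotation on the opposing strand, and TPM, made with StringTie 2.1.1. The depth was 31727557 to 43210858 counts per library, and counting error was not separated from the spread between mice.

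Counts were tested with edgeR 4.0.16 (R 4.3.3; filterByExpr, TMM, quasi-likelihood test with batch and sex), TPM with limma 3.58.1 on log2(TPM + 1) for genes whose mean reached 1 TPM, both in replicates 2 to 4, with Benjamini-Hochberg adjustment over all genes. The study's thresholds were used for calls: an adjusted p under 0.05 with a log2 fold change of more than 0.5 in either direction. CPM are counts scaled to the plain library total, without TMM. Alternatives were DESeq2 1.42.0 with and without shrinkage, other normalizations, no filter, a TPM pseudocount of 0.1, the 8 libraries together, no replicate block, each replicate left out in turn, and glmTreat against a log2 fold change of 0.5. On simulated data edgeR recovered 184 of 200 changed genes among 14064 with 4 false calls, and limma 168 of 200 among 12873 with 3. The planted log2 changes were 1 or 2 in either direction, with no batch or sex effect, so recovery of smaller changes was not measured.

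Same-numbered libraries are paired by the batch and sex in their labels. Their deviations from the genotype means correlated at 0.488, 0.403 and 0.333 across genes. In the 6 libraries, batch with sex amounts to a block by replicate number.

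The 10 genes and all gene lists were chosen with earlier results of these data known. Named in the text are the 10 genes, Eif4a1, the DP, pocket protein and MuvB lists, of each other list up to 3 called genes with the smallest adjusted p in each direction, and the 3 genes with the highest correlation to each of the 10. Some genes that this rule names are not reported here. Uncalled genes of the E2F6, co-repressor and B cell marker lists, and the order of the 10 genes in CPM per kilobase, were added after their values had been seen. Promoter windows came from RefSeq (GRCm38.p6 table) and each was matched to 1 place in GRCm39.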

Additional observations from a re-analysis of the deposited data

Results flagged for a closer look

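Control 2 lay apart from the other control libraries for E2f5, in both quantifications of the same reads. It had 8.80 CPM where the others had 12.2 to 12.9, and its distance to the next library made up 0.842 of the spread of the 4 control libraries, above Dixon's critical value for 4 libraries. In TPM it had 9.30 where the others had 13.1 to 13.7, and this proportion was 0.852. Chance flags about 1 in 20 groups, and 44 groups were examined, so that 2.2 flags are expected by chance and 2 were found. Without replicate 2 the log2 fold change of E2f5 was 0.99, against 1.19 with it.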

How the results depend on the processing

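All 10 genes kept their direction under every alternative run, and 175 of 180 values kept both direction and side of the threshold. The exceptions were E2f3 against a log2 fold change of 0.5 itself (glmTreat, adjusted p = 0.0595), Rbl1 in counts without replicate 3 (-0.51, called), Rbl1 in TPM without replicate 2 (-0.36, adjusted p = 0.0538, limma) and without replicate 4 (-0.44, adjusted p = 0.0519), and E2f4 in TPM of all 8 libraries, which took the genes higher at an adjusted p under 0.05 from 1 to 2. DESeq2 with normal shrinkage gave E2f8 -1.004 and still called it. Over all genes, glmTreat called 987 lower and 640 higher, and DESeq2 with normal shrinkage called 1089 higher, against 1949 and 1647. Without the replicate block, 6 of the 10 genes were called lower and 1 higher, as with it, and 1658 genes in all were called lower and 1342 higher; leaving the block out changed no call among the 10 genes. Leaving out each replicate left 6 or 7 of the 10 genes called lower and 1 higher, 35 of the 40 E2F targets called lower, and 1690 to 2093 genes in all called lower and 1393 to 1728 higher. With CPM per kilobase in place of TPM the activator share was 43.1% in control and 28.2% in 4A1 KO libraries. The 7 genes that were lower in males came to 0 in the 6 libraries without replicate 1, a fit with 1 male per genotype in which all 7 still had a lower value in males, -0.14 for Rb1 to -1.49 for E2f8. The causes were not tested. RNA levels of 3 to 4 mice per genotype say nothing of E2F protein or of pocket protein phosphorylation, and the lowest counts, 33 for E2f7 and 60 for E2f8 in 4A1 KO 1, limit the precision of those pairs.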
